A study of Mus musculus with 6 samples.

Results

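The 10 RNAs described here are long non-coding RNAs that stay largely in the nucleus, come from an imprinted locus or host small nucleolar RNAs (snoRNAs), followed in mouse dorsal root ganglia after vincristine: Malat1, Neat1, Meg3, Rian, Mirg, Miat, Snhg11, Gas5, Snhg1 and Snhg12. They were taken from the tables by gene symbol. All 10 had a row among the 38926 gene symbols of the deposited count tables, and all 10 passed the filter on low counts, which left 16706 genes to be tested. Vincristine is a chemotherapy drug that binds tubulin and can damage peripheral nerves. RNA sequencing covered 6 libraries, each made from ganglia of lumbar levels 3 to 5 pooled from 4 female C57BL/6 mice that were 8 to 10 weeks old and wild type. The 3 vincristine pools came from mice injected in the paw with vincristine to a cumulative 40 µg, the 3 vehicle pools from mice given vehicle, and in both groups the ganglia lay on the treated side. File names carry 10 µg instead, and the sources used here do not say how the figures relate.

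Malat1 and Neat1 are neighbouring genes whose RNAs are kept in the nucleus. Malat1 gathers in nuclear speckles, which are stores of splicing factors, and the long form of Neat1 is the scaffold of paraspeckles, nuclear bodies that hold RNAs and RNA-binding proteins. Meg3, Rian and Mirg are transcribed from the maternal chromosome of the imprinted Dlk1-Dio3 domain, and Rian and Mirg carry snoRNAs and microRNAs within them. Gas5, Snhg1 and Snhg12 host box C/D or box H/ACA snoRNAs in their introns, and their spliced RNAs are usually removed by nonsense-mediated decay, which couples their level to translation. Miat and Snhg11 are known mainly from neurons.

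Vincristine replicate 1 stood apart from the other libraries. It lay at 71.4 on the first principal component, which held 54.9% of the variance, while the other libraries lay between -41.3 and 6.69. It had the fewest reads in genes, 12374331 against 17967934 to 26346304 elsewhere. Of its tallied alignments 24.8% fell outside annotated genes, against 14.8% to 17.0% in the other 5 libraries. Its pan-neuronal markers had a median log2 level 1.31 below the vehicle mean, against -0.17 and 0.04 in vincristine replicates 2 and 3. Defining neuronal, glial and Schwann cell markers were present in all 6 libraries. Atf3, a transcription factor gene induced by nerve injury, had 7.19 ± 1.01 CPM (read counts scaled to a common library size; SD, n = 3) in vehicle and 205 ± 80.2 in vincristine, which is 4.83 ± 0.33 (SE) higher on the log2 scale (edgeR adjusted p = 0.00732). Where a vehicle library was left out, the edgeR adjusted p of Atf3 lay between 0.0676 and 0.107.

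None of the 10 RNAs passed the edgeR quasi-likelihood test at a Benjamini-Hochberg adjusted p under 0.05, a test that called 0.359% of all genes (60 of 16706), 0.293% as higher and 0.0658% as lower in vincristine. At an unadjusted p under 0.05 there was 1 of 10, Neat1, which was higher, against 11.4% of all genes (8.10% higher and 3.27% lower). DESeq2 called 1 of 10, again Neat1 as higher, against 3.41% of all genes (2.92% as higher), and limma-voom called none. In Neat1 each vincristine library lay above each vehicle library, and in Mirg each lay below, so that the groups did not overlap in 2 of 10 RNAs, against 21.0% of all genes (11.5% above and 9.51% below). The median log2 fold change was 0.04 over the 10 RNAs and -0.0033 over all genes tested, with 5 of 10 above 0. The shares of RNAs called are thus near those of all genes, and the values below are mostly those of RNAs whose groups overlapped.

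**Figure D1:**
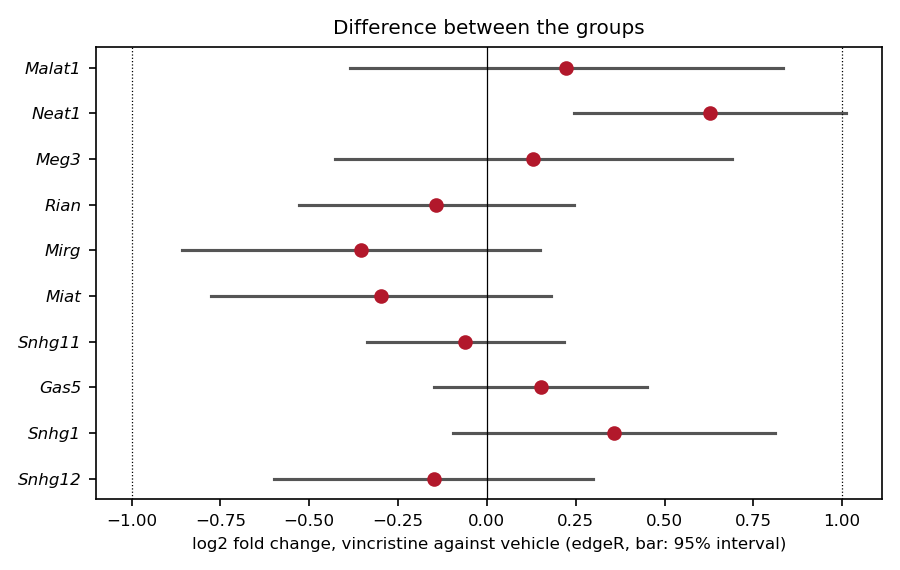
Log2 fold change of each RNA, vincristine against vehicle, from edgeR (points) with its 95% interval (bars); dotted lines stand at -1 and 1. The interval of Neat1, from 0.24 to 1.01, is the only one of the 10 that does not include 0.

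The 95% intervals also set how large a difference these libraries leave possible. For the 9 RNAs other than Neat1 they lay between -0.86, the lower end for Mirg, and 0.83, the upper end for Malat1, and each included 0. The narrowest belonged to Snhg11, from -0.34 to 0.22, and Gas5, from -0.15 to 0.45. A p that missed the threshold therefore does not show that an RNA was equal in both groups. In vehicle, replicate 3 was the highest library for every RNA of the 10 except Gas5 and Snhg1, which widened the spread of that group.

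Per length the RNAs spanned a wide range in vehicle ganglia. Malat1 led with 914 ± 177 CPM per kb of merged exons (SD, n = 3), and each of the other 9 lay below 18 CPM per kb in every vehicle library. Snhg11 followed at 16.5 ± 1.14 and Gas5 at 15.8 ± 1.44, and their vehicle ranges overlapped. Rian at 12.5 ± 1.03, Meg3 at 10.4 ± 3.53 and Neat1 at 10.2 ± 0.721 CPM per kb formed a run in which Rian overlapped Meg3 and Meg3 overlapped Neat1. Below them stood Miat at 6.80 ± 1.81, Snhg1 at 3.41 ± 0.180, Snhg12 at 2.58 ± 0.196 and Mirg at 1.38 ± 0.400, with no overlap between neighbours in that order. In vincristine ganglia Neat1 had 15.8 ± 2.78 CPM per kb. That was above the 11.3 ± 1.99 of Rian and the 11.4 ± 1.20 of Meg3, whose vehicle means were above its own. The order depends on the annotated lengths. Neat1 was divided by 20771 bases, and a count per gene does not separate its long form from shorter ones. The merged exons of Snhg1 (2969 bases) and Snhg12 (2402 bases) cover the whole gene, introns included. Those of Gas5 cover 3760 of its 4118 bases, so its place in the order carries the same limit.

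**Figure D2:**
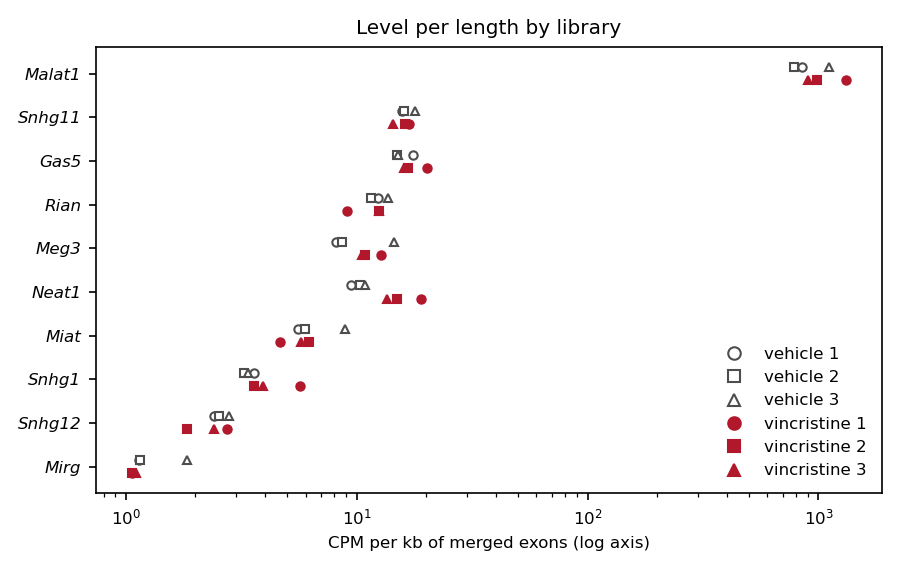
Level of each RNA in CPM per kb of merged exons (log axis), with 1 point per library (open, vehicle; filled, vincristine; shapes, replicates). Malat1 at 781 CPM per kb or more stands apart, and the filled points of Neat1, from 13.6 to 18.9, lie above its open points, from 9.46 to 10.9.

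Malat1 (ENSMUSG00000092341.3) lies on the minus strand of chromosome 19 at chr19:5795690-5802672 in GRCm38, as a single exon of 6983 bases in GENCODE M21. It ranked 1 by vehicle level of the 656 tested genes with a long non-coding type in that annotation, and alone it took 0.535% to 0.962% of all reads in genes. Malat1 measured 5900, 5453 and 7783 CPM in vehicle replicates 1 to 3 and 9218, 6870 and 6262 CPM in vincristine replicates 1 to 3. The groups overlapped, since vehicle replicate 3 was above vincristine replicates 2 and 3. In edgeR the log2 fold change was 0.22 ± 0.26 (SE; edgeR adjusted p = 0.773). Without vincristine replicate 1, the highest library, it was 0.04.

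Neat1 (ENSMUSG00000092274.3) lies on the same strand as Malat1 with a gap of 22.0 kb between them, at chr19:5824708-5845478 and 20771 bases long in 1 exon. Its level was 196, 214 and 226 CPM in the vehicle libraries and 393, 309 and 282 CPM in the vincristine libraries. Every vincristine library was above every vehicle library, with vincristine replicate 1 the highest of all. The means were 212 ± 15.0 and 328 ± 57.8 CPM (SD, n = 3 each), which is 1.55-fold with a 95% interval from 1.18 to 2.02.

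The log2 fold change of Neat1, 0.63 ± 0.16 (SE), had an edgeR adjusted p of 0.216 and a DESeq2 adjusted p of 0.0183, so its call depends on the tool. Across 10 other tests, scalings, filters and designs with all 6 libraries, DESeq2 among them, the log2 fold change stayed between 0.61 and 0.65. With vincristine replicate 1 left out it was 0.48 ± 0.11, with an edgeR adjusted p of 0.0771 and a DESeq2 adjusted p of 0.00295. DESeq2 no longer called it without vehicle replicate 1, 2 or 3 (DESeq2 adjusted p = 0.225, 0.216 and 0.123) or without vincristine replicate 2 (DESeq2 adjusted p = 0.0642). Among all tested genes its log2 fold change stood at percentile 92.1, and among the 656 long non-coding genes it ranked 15 by p.

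Counted inside each library, which removes scaling between libraries, there were 3.33, 3.92 and 2.91 Neat1 reads per 100 Malat1 reads in vehicle and 4.26, 4.50 and 4.50 in vincristine. The groups did not overlap, and vehicle replicate 3, the lowest, was also the vehicle library with the most Malat1. The mean ratio was 1.32-fold higher in vincristine, a log2 difference of 0.40, with a two-sided exact permutation p of 0.1, the smallest that 3 against 3 allows. With 1 library left out at a time the difference lay between 0.29 and 0.51.

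**Figure D3:**
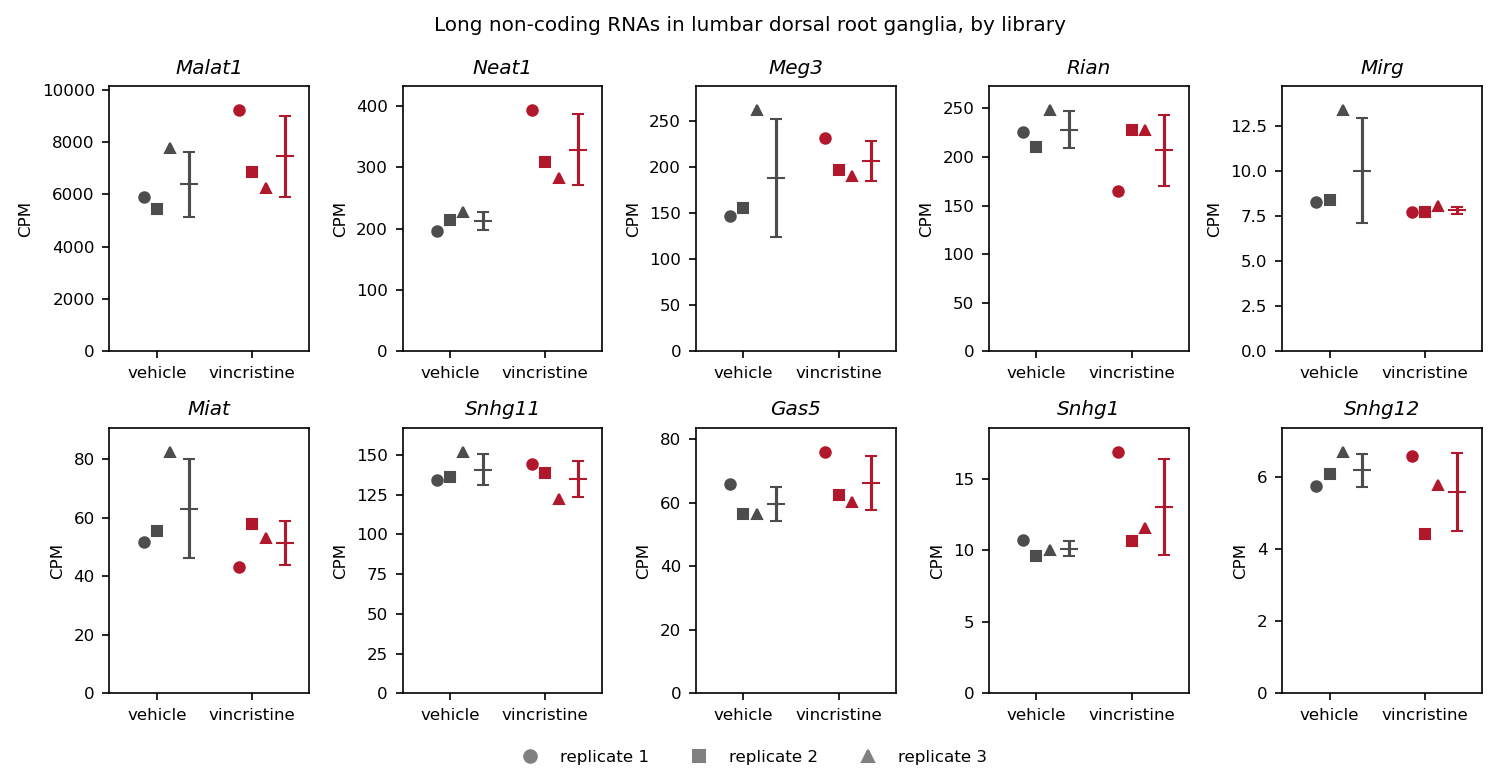
CPM (TMM-scaled) of each RNA in each library, with the group mean and SD beside the points; each vertical axis starts at 0. Neat1 is the RNA with all vincristine points, 282 to 393, above all vehicle points, 196 to 226, and vehicle replicate 3 is the highest vehicle library for all RNAs but Gas5 and Snhg1.

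The genes that encode protein partners of these RNAs were read from the same test, as RNA levels. Of 18 paraspeckle proteins none was called by edgeR or DESeq2. At an unadjusted edgeR p under 0.05 there were 3 of 18, all higher, against 8.10% of all genes that were higher. A positive log2 fold change was seen in 14 of 18, with a median of 0.10 against -0.0033 over all genes. Among them were Taf15, an RNA-binding protein (15.3 ± 2.09 CPM in vehicle and 21.0 ± 3.07 in vincristine, log2 fold change 0.46, edgeR adjusted p = 0.347), and Rbm14 (17.5 ± 1.18 and 22.2 ± 2.20 CPM, 0.34, edgeR adjusted p = 0.359). Of those that build the paraspeckle with Neat1, Sfpq was at 0.31 ± 0.18 and Nono at 0.18 ± 0.09 on the log2 scale. Tardbp, which encodes TDP-43 and was also listed, was at 0.09 ± 0.11. Nono did not overlap between groups, at 60.0 ± 1.02 and 68.0 ± 3.61 CPM. Of 24 nuclear speckle proteins, the company of Malat1, none was called by either tool and 22 of 24 had a positive log2 fold change, with a median of 0.09. Acin1, an RNA-binding protein of the splicing machinery, was the 1 of 24 with an unadjusted p under 0.05 (90.7 ± 5.29 and 111 ± 13.1 CPM, log2 fold change 0.29, edgeR adjusted p = 0.435). By library, the median deviation of the speckle proteins from the vehicle mean was 0.26, 0.05 and -0.01 in vincristine replicates 1 to 3. That of the paraspeckle proteins was 0.23, 0.08 and 0.03, so both lists stood highest in vincristine replicate 1.

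The RNAs of the Dlk1-Dio3 domain lie in a row on the plus strand of chromosome 12: Meg3 (ENSMUSG00000021268.17) at chr12:109541001-109571726, Rian (ENSMUSG00000097451.10) at chr12:109603940-109661716, 32.2 kb on, and Mirg (ENSMUSG00000097391.8) at chr12:109729764-109749460, a further 68.0 kb on. In vincristine replicate 1, against the vehicle mean, Meg3 was 0.35 higher on the log2 scale while Rian was at -0.47 and Mirg at -0.33.

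Meg3 measured 147, 156 and 262 CPM in vehicle and 231, 197 and 191 CPM in vincristine. Vehicle replicate 3 was the highest of the 6 libraries and the other vehicle libraries were the lowest, so the vincristine values lay inside the vehicle range. The log2 fold change was 0.13 ± 0.24 (SE, edgeR adjusted p = 0.868). With 1 library left out at a time it ran from -0.02 to 0.44 in edgeR, below 0 without vehicle replicate 1 and 0.44 without vehicle replicate 3.

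Rian measured 226, 211 and 248 CPM in vehicle and 165, 228 and 227 CPM in vincristine. Vincristine replicate 1 was the lowest library, and the other vincristine libraries lay inside the vehicle range. The log2 fold change was -0.14 ± 0.16 (SE; edgeR adjusted p = 0.773), and -0.0038 without vincristine replicate 1. Within libraries there were 153, 135 and 94.8 Rian reads per 100 Meg3 reads in vehicle and 71.3, 116 and 119 in vincristine. These ranges overlapped, with a log2 difference of -0.33 and a two-sided exact permutation p of 0.4.

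Mirg measured 8.29, 8.39 and 13.4 CPM in vehicle and 7.74, 7.73 and 8.05 CPM in vincristine, from 100 to 268 reads a library. All vincristine libraries were below all vehicle libraries, by little except against vehicle replicate 3. The log2 fold change was -0.35 ± 0.21 (SE; edgeR adjusted p = 0.584), and without vehicle replicate 3 it was -0.09. Against Meg3, at the other end of the row, the separation was wider: 5.65, 5.40 and 5.13 Mirg reads per 100 Meg3 reads in vehicle and 3.37, 3.94 and 4.24 in vincristine. The groups did not overlap, and the mean ratio was 0.711 of that in vehicle, a log2 difference of -0.49 with a two-sided exact permutation p of 0.1, the smallest possible. Each library left out in turn gave a difference between -0.57 and -0.40, below 0 each time. Against Rian, the gene next to it, the groups overlapped: 3.69, 3.99 and 5.41 Mirg reads per 100 Rian reads in vehicle and 4.72, 3.41 and 3.55 in vincristine. That log2 difference, computed after the other ratios had been seen, was -0.16, with a two-sided exact permutation p of 0.5.

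**Figure D4:**
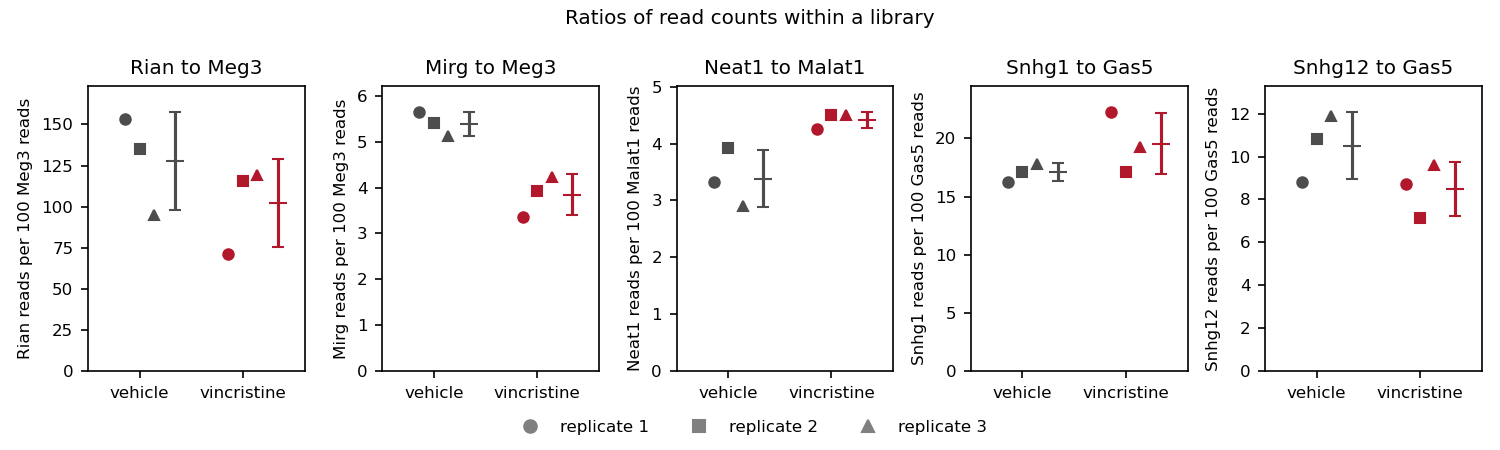
Reads of one RNA per 100 reads of another within each library, with group mean and SD; axes start at 0. Mirg to Meg3 (5.13 to 5.65 in vehicle, 3.37 to 4.24 in vincristine) and Neat1 to Malat1 (2.91 to 3.92 and 4.26 to 4.50) are the 2 of 5 ratios whose groups do not overlap.

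Mirg is the host of a microRNA cluster, and a few of its products are shown because its ratio to Meg3 differed between the groups without overlap. Within its span in GENCODE M21, RefSeq places 26 mature microRNAs from 14 hairpins on GRCm38.p6. They have 25 different seeds (bases 2 to 8, by which a microRNA pairs with its targets). The only seed held by more than one was that of miR-453 and miR-496a-5p. These are shown first, then miR-134-5p, a microRNA studied in dendrites, and miR-382-5p, the first within Mirg. Each is written 5′ to 3′ from RefSeq with its seed in capitals:
miR-453: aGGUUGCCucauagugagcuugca
miR-496a-5p: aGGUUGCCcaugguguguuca
miR-134-5p: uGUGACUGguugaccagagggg
miR-382-5p: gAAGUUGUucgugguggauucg
On the plus strand they lie at chr12:109735669-109735692, chr12:109739132-109739152, chr12:109734145-109734166 and chr12:109733781-109733802. RefSeq puts the start of Mirg within chr12:109734731-109735030, downstream of miR-134-5p and miR-382-5p. Those microRNAs thus lie within Mirg only as GENCODE M21 places it. Mature microRNAs were not measured, since the libraries held total RNA read at 75 bases after a column extraction that as a rule loses small RNAs. Of 14 microRNA hairpins in Mirg 11 had a row in the tables, with 52 reads over all 6 libraries, and 5 of the 11 were at 0 throughout. The 15 small RNAs of Rian with a row had 192 reads, 90 of them in the snoRNA Gm23600 with 11 to 20 a library. All of these lie inside their host on the same strand, and how reads over both were counted is not given.

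The other genes listed with the domain were read beside them, and whether each is imprinted was not tested. Of 6 listed, 4 were tested and none was called by edgeR or DESeq2 or had an unadjusted p under 0.05, and their median log2 fold change was -0.03. Dlk1, the paternally expressed ligand-like gene of the domain, had 3.85 ± 0.305 CPM in vehicle and 3.25 ± 1.70 in vincristine (log2 fold change -0.28 ± 0.41). Begain, Ppp2r5c and Wdr25 had log2 fold changes of 0.22, 0.07 and -0.13. Rtl1 and Dio3, both paternally expressed, had 23 and 29 reads over all libraries and were not tested. Of 25 other imprinted genes tested none was called by either tool, 3 had an unadjusted p under 0.05 and 9 had a positive log2 fold change, with a median of -0.05. Peg10, a retrotransposon-derived gene expressed from the paternal allele, had 12.1 ± 2.48 and 17.5 ± 0.221 CPM (log2 fold change 0.54, edgeR adjusted p = 0.280). Nap1l5 had 178 ± 11.0 and 122 ± 25.6 CPM (-0.54, edgeR adjusted p = 0.314), and Blcap 36.9 ± 0.381 and 46.6 ± 8.17 (0.34, edgeR adjusted p = 0.424). Without vincristine replicate 1 edgeR called Blcap (log2 fold change 0.47, edgeR adjusted p = 0.0357). H19, itself a maternally expressed non-coding RNA, its neighbour Igf2 and Peg3 had log2 fold changes of 0.01 ± 0.47, -0.05 ± 0.38 and -0.29 ± 0.23, and the signs of H19 and Igf2 changed with a library left out.

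Miat (ENSMUSG00000097767.8), on the minus strand at chr5:112213228-112229395, is known for its place in nuclear domains of neurons. It measured 51.8, 55.4 and 82.5 CPM in vehicle and 43.2, 57.8 and 53.1 CPM in vincristine. Vincristine replicate 1 was the lowest and vehicle replicate 3 the highest, and the rest lay close together across groups. Its log2 fold change was -0.30 ± 0.20 (SE; edgeR adjusted p = 0.628), and -0.06 without vehicle replicate 3.

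Snhg11 (ENSMUSG00000044349.15), at chr2:158375638-158386145 on the plus strand, is typed as protein-coding in GENCODE M21 although named as a snoRNA host. It measured 134, 136 and 152 CPM in vehicle and 144, 138 and 122 CPM in vincristine, a range of little spread in which the groups crossed. Its log2 fold change, -0.06 ± 0.12 (SE; edgeR adjusted p = 0.879), was the one nearest 0 of the 10.

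Gas5 (ENSMUSG00000053332.13), at chr1:161034422-161038539 on the plus strand, hosts box C/D snoRNAs and starts with a terminal oligopyrimidine tract, the mark of RNAs whose translation mTORC1 controls. It measured 65.8, 56.4 and 56.5 CPM in vehicle and 75.9, 62.5 and 60.2 CPM in vincristine. Vincristine replicate 1 was highest, and vehicle replicate 1 was above the other vincristine libraries. On the log2 scale vincristine stood 0.15 ± 0.13 above vehicle (SE; edgeR adjusted p = 0.693). Gas5 overlaps Zbtb37 on the other strand, which had 1720 reads in all. No source used here says whether counting took account of strand. Reads of the overlap could thus have been left uncounted as ambiguous or given to the wrong gene.

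Snhg1 (ENSMUSG00000108414.1), at chr19:8723475-8726443 on the plus strand, measured 10.7, 9.64 and 10.0 CPM in vehicle and 16.9, 10.7 and 11.6 CPM in vincristine. Only vincristine replicate 1 stood clear of the other libraries, and its neighbours in value overlapped between groups. Its log2 fold change was 0.36 ± 0.19 (SE; edgeR adjusted p = 0.543), and 0.14 without vincristine replicate 1. Snhg12 (ENSMUSG00000086290.9), at chr4:132308623-132311024 on the plus strand, was among the least abundant, with 85 to 150 reads a library. It measured 5.77, 6.10 and 6.70 CPM in vehicle and 6.58, 4.44 and 5.78 CPM in vincristine, with vincristine replicate 2 the lowest and the groups overlapping. Its log2 fold change was -0.15 ± 0.19 (SE; edgeR adjusted p = 0.800).

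Set against Gas5 within libraries, Snhg1 and Snhg12 leaned in different directions. Per 100 Gas5 reads there were 16.3, 17.1 and 17.8 Snhg1 reads in vehicle and 22.3, 17.1 and 19.3 in vincristine, a log2 difference of 0.19 (two-sided exact permutation p = 0.3). For Snhg12 there were 8.81, 10.8 and 11.9 in vehicle and 8.72, 7.14 and 9.63 in vincristine, a log2 difference of -0.31 (two-sided exact permutation p = 0.2). Both ratios overlapped between groups. Few reads were counted to the snoRNAs themselves. The 7 with a row in Gas5 and 8 in Snhg1 were at 0 in every library, while Snora16a in Snhg12 had 40 reads in all and Gm25129 in Snhg11 had 100. These snoRNAs lie inside their hosts on the same strand, and how reads over both were counted is not given. Their low counts therefore do not show that they were absent.

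Genes tied to the snoRNA hosts by function gave few differences. Of 20 other snoRNA hosts tested none was called by edgeR or DESeq2 and none had an unadjusted p under 0.05, with 14 of 20 log2 fold changes above 0 and a median of 0.07. Snhg5 had 6.74 ± 0.303 CPM in vehicle and 8.93 ± 1.85 in vincristine (log2 fold change 0.40), Snhg7 3.56 ± 0.149 and 4.52 ± 0.632 (0.34), and Eif4a2, a translation factor that also hosts snoRNAs, 614 ± 35.4 and 489 ± 80.0 (-0.33). Of 14 nonsense-mediated decay factors none was called by either tool or had an unadjusted p under 0.05, with 8 positive log2 fold changes and a median of 0.05. Upf1, the helicase of that pathway, had 62.4 ± 5.05 and 71.7 ± 3.64 CPM, with no overlap (log2 fold change 0.20, edgeR adjusted p = 0.531). For 14 snoRNP and snoRNA processing genes the counts were the same, with a median of 0.02. Of 12 regulators of mTORC1 and of its translational targets edgeR called none, 3 had an unadjusted p under 0.05, and DESeq2 called 2; those 3 were the only genes of the list with a positive log2 fold change, and the median was -0.08. The genes called by DESeq2 were Sesn2, a stress-induced inhibitor of mTORC1 (8.44 ± 0.860 and 14.01 ± 1.83 CPM, log2 fold change 0.73, edgeR adjusted p = 0.152, DESeq2 adjusted p = 0.00781), and Eif4ebp1, which holds back cap-dependent translation (8.95 ± 1.35 and 14.04 ± 1.37 CPM, 0.65, edgeR adjusted p = 0.199, DESeq2 adjusted p = 0.0302). The third, Eif4ebp2, had 11.4 and 14.9 CPM (0.39, edgeR adjusted p = 0.374).

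The start regions of the members were searched for the cAMP response element TGACGTCA, read by the CREB and ATF family to which Atf3 belongs, and for the AP-1 site TGANTCA, on both strands. RefSeq windows from 250 bases before to 50 bases after a start matched 9 of 10 members, with 11 windows in all; Neat1 was not matched. TGACGTCA occurred in 2 of 11 windows, of Gas5 and Meg3, and in 1.79% of all 32851 windows. TGANTCA occurred in none of the 11 and in 7.81% of all windows. The windows that hold the element are printed 5′ to 3′ from RefSeq on GRCm38.p6, plus strand, at chr1:161034916-161035215 and chr12:109540746-109541045, with the element in capitals:
Gas5: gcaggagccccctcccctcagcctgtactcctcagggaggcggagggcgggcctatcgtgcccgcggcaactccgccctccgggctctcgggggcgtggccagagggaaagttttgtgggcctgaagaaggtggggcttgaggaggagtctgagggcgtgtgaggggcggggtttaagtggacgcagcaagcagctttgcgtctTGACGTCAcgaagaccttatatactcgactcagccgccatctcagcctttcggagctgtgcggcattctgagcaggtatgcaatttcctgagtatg
Meg3: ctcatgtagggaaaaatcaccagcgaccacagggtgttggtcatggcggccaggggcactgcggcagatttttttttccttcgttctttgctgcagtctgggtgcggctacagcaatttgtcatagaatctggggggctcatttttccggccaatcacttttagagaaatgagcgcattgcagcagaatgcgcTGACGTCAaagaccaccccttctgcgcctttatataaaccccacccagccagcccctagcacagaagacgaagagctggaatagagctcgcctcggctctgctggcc
The element lies 46 bases before the RefSeq start of that window in Gas5 and 57 bases before it in Meg3. Each gene had a second window without the element. The Gas5 start concerned lies inside the gene as GENCODE M21 places it, downstream of the first base given above. A match is only a run of letters, and both genes had overlapping groups in these libraries.

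Levels of cell type markers differed between the libraries, and the members are set beside them here. In bulk tissue, fewer cells of a type and less RNA per cell cannot be told apart. The summed CPM of 17 pan-neuronal markers was 10770 to 14230 in vehicle and 5203, 11090 and 13480 in vincristine replicates 1 to 3. That of 14 neutrophil markers was 899 to 1561 in vehicle and 8552, 2842 and 3270 in vincristine, and that of 14 monocyte and macrophage markers 775 to 1012 and 2565, 1308 and 1384. All 14 neutrophil and all 14 macrophage markers had positive log2 fold changes, with median log2 fold changes of 1.996 and 0.66. Erythroid markers behaved likewise, with a median of 1.54 over 12 genes, while 9 of 11 B-lineage markers were called lower by edgeR. Markers of other tissue varied within groups. The summed CPM of 8 skeletal muscle markers was 61.5, 99 and 434 in vehicle replicates 1 to 3 and 172, 849 and 206 in vincristine. For 8 bone and cartilage markers it was 42.7, 31.9 and 71.1, and 78.7, 52.5 and 41.2. For 8 fibroblast and meningeal markers it was 7839, 5516 and 9551, and 9121, 7517 and 4389. The part of such tissue in the member values was not tested. No marker in these lists was at 0 in all libraries.

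Relative to its vehicle mean, Neat1 was at 0.89, 0.55 and 0.41 on the log2 scale in vincristine replicates 1 to 3, the macrophage list at 1.0, 0.40 and 0.53 and the neutrophil list at 2.82, 1.31 and 1.44. Snhg1 was at 0.74, 0.07 and 0.20, and Malat1 at 0.55, 0.12 and -0.01. Rian was at -0.47, 0.00 and 0.00 and Miat at -0.52, -0.10 and -0.22, where the pan-neuronal list was at -1.31, -0.17 and 0.04. Mirg was at -0.33, -0.34 and -0.28 and so had no such outlying library. The part of immune or neuronal cell content in these values was not tested, and Neat1 remained above the vehicle range in vincristine replicates 2 and 3, where the neuronal list was near the vehicle mean and both immune lists were above it.

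**Figure D5:**
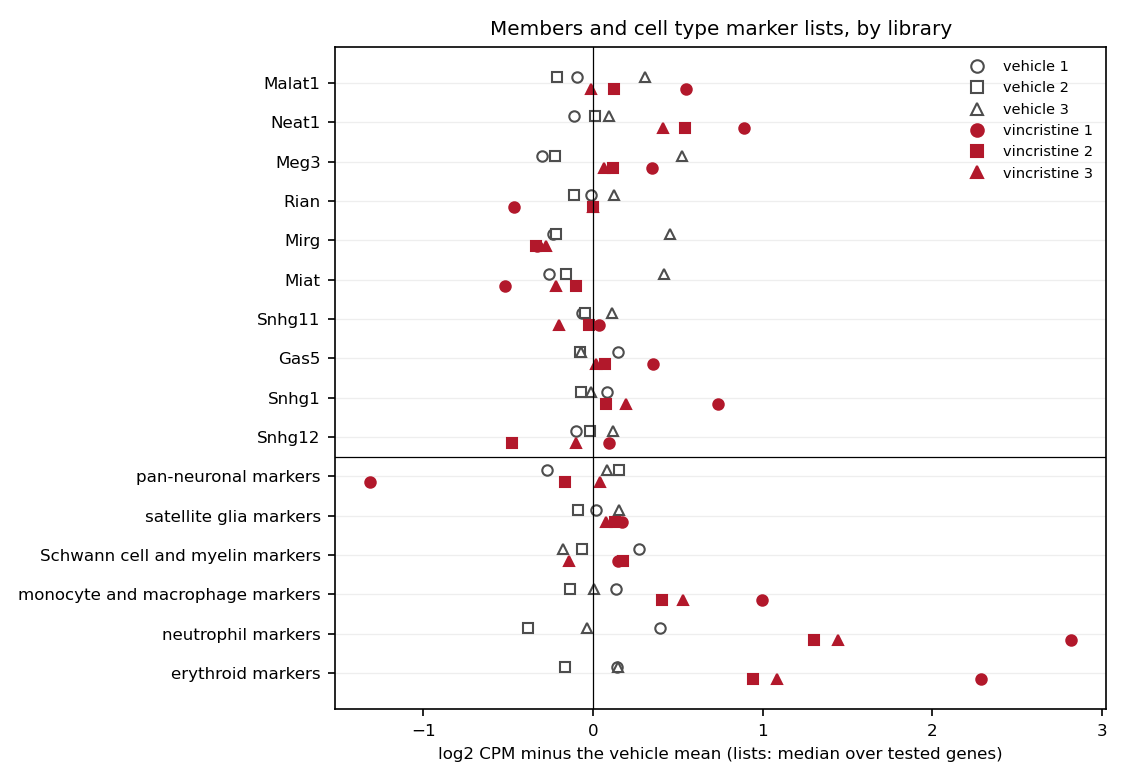
Log2 CPM minus the vehicle mean for each RNA (above the line) and the median of 6 cell type marker lists (below it), 1 point per library. Vincristine replicate 1 is the extreme library for neurons at -1.31, neutrophils at 2.82 and macrophages at 1.0, and also for Neat1 at 0.89, Snhg1 at 0.74 and Miat at -0.52.

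Profiles over the 6 libraries were compared by the root mean square difference of vehicle-centred log2 CPM. Among the members the closest pairs were Mirg and Miat at 0.13, Malat1 and Meg3 at 0.152 and Gas5 and Snhg1 at 0.177. Of 11054 other genes with at least 10 CPM, those closest to Neat1 were Micall2 at 0.0518, Sh2d3c at 0.0729 and Lrp4 at 0.0774, with log2 fold changes of 0.62, 0.62 and 0.54. Malat1 was closest to Dab2, Nktr and Paxbp1 (0.0656 to 0.068), and Meg3 to Ryr3, Unc5b and Shank3 (0.112 to 0.129). The Snhg11 profile was nearest those of Rbm4b, Negr1 and Neo1 (0.0186 to 0.0339), and that of Gas5 nearest Snrpa1, Rbbp4 and Rplp0 (0.0233 to 0.0306). These distances describe 6 shared libraries only, and flat profiles such as that of Snhg11 find close matches readily.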

How the data were processed

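Per the labels' protocols, column-purified total RNA went into stranded libraries, read as single ends of 75 bases. The authors deposited raw read counts per gene symbol, made with STAR, SAMtools and HTSeq on mm10 (GRCm38) per the submitters' processing notes. Versions, annotation and strand setting: not given in the sources used here. Summary lines of HTSeq were kept out of library sizes; 14.8% to 24.8% of tallied alignments lay outside genes. Groups came from sample titles. Libraries of a group differed by more than sampling noise.

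edgeR 4.0.16 in R 4.3.3 (filterByExpr, minimum count 10; TMM; robust quasi-likelihood, 4 residual degrees of freedom) gave two-sided p-values, adjusted by Benjamini-Hochberg over 16706 genes, with a threshold of 0.05. Each SE is the absolute log2 fold change over the root of its F statistic. CPM use TMM-scaled library sizes. Ratios added 0.5 reads to each count and were tested by exact permutation. DESeq2 1.42.0 and limma-voom (limma 3.58.1), other scalings, filters, a replicate block and leaving out libraries were alternatives; DESeq2 with a library left out was added after seeing the data. Both count tests were run on simulated counts, where each missed most of the smallest differences set and called some unchanged genes. Positions come from GENCODE M21.

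The members and the 23 gene lists were chosen with earlier results of these data known. Named are the 10 members, up to 3 genes of smallest p in each pathway list, a set of genes whatever their values (Dlk1, Rtl1, Dio3, Xist, H19, Igf2, Kcnq1ot1, which had no match, Peg3, Sfpq, Nono, Tardbp and Upf1), Atf3, and the 3 closest profiles of 5 members. The lists hold 334 entries, of which 19 matched by an older symbol and 13 by none. Some genes that this rule names are not reported here.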

Additional observations from a re-analysis of the deposited data

How the results depend on the processing

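The number of genes called was 60 in the edgeR fit, 569 with DESeq2, 99 with no low-count filter, 261 with the replicate number as a block and 125 at an adjusted p under 0.1. It lay between 0 and 638 with a library left out, over edgeR and DESeq2. Leaving out vincristine replicate 1, 2 or 3, edgeR called 346, 6 and 18 and DESeq2 638, 609 and 550. Leaving out any one vehicle replicate, edgeR called 0, with 1063 to 1462 genes at an unadjusted p under 0.05, against 331, 212 and 328 called by DESeq2. Of the members, DESeq2 called 1 higher, Neat1, as it did without vincristine replicate 1 or 3. With a library left out, the members called higher numbered 0 to 1 and those called lower 0 in each fit. The deviations of same-numbered samples had correlations of 0.41, 0.233 and -0.0909, not all positive, so the numbers were not taken to pair the samples; the replicate block called 0 of the 10 members, with Neat1 alone at an unadjusted p under 0.05.

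Signs changed for few genes. H19 had a log2 fold change of -0.000298 with no low-count filter and -0.0131 with the replicate block. With a library left out, Meg3 ran from -0.020 to 0.44 in edgeR (-0.028 without vehicle replicate 1 in DESeq2), Snhg11 from -0.111 to 0.0059 in edgeR, H19 from -0.42 to 0.37, Igf2 from -0.44 to 0.28, Wdr25 from -0.25 to 0.063 and Dlk1 from -0.65 to 0.12. The other 8 members kept their sign in all 22 alternative fits. The cause of these changes was not tested. Of the ratios, Rian to Meg3 ran from -0.53 to -0.09, Snhg1 to Gas5 from 0.09 to 0.28 and Snhg12 to Gas5 from -0.43 to -0.19 on the log2 scale with a library left out. Other scaling moved the median gene by little, to between -0.01 and 0.01.

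Snhg12, Mirg and Snhg1 rest on the fewest reads of the 10, 85 to 301 a library, and vincristine replicate 1 had the fewest reads in genes.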

Other observations

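Among all 656 tested genes with a long non-coding type in GENCODE M21, edgeR called 1 higher and 1 lower in vincristine, neither a member. DESeq2 called 13 of the 656. Over all 16706 genes tested, edgeR called 60 (0.359%) and DESeq2 569 (3.41%), so the long non-coding genes were not called more often. The genes that edgeR called here were singled out after their values were seen. F930017D23Rik had 1.12, 1.04 and 1.40 CPM in the vehicle libraries and 7.90, 4.39 and 4.93 CPM in the vincristine libraries, from 20 to 128 reads. Its groups did not overlap, and the log2 fold change was 2.25 ± 0.30 (SE; edgeR adjusted p = 0.0393). D930028M14Rik had 32.5, 29.8 and 31.2 CPM in vehicle and 16.9, 19.2 and 19.4 CPM in vincristine, again without overlap and with little spread in either group (log2 fold change -0.75 ± 0.11, edgeR adjusted p = 0.0498). With any vehicle library left out edgeR called no gene, so neither call holds there (DESeq2 called 212 to 331 genes and 1063 to 1462 had an unadjusted edgeR p under 0.05).

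Of 16 other long non-coding RNAs listed by name and tested, none was called by edgeR or DESeq2, 1 had an unadjusted p under 0.05 and 9 had a positive log2 fold change, with a median of 0.08. Rmst, a non-coding RNA of neural differentiation, was the 1, at 0.625 ± 0.157 CPM in vehicle and 1.74 ± 1.25 in vincristine (log2 fold change 1.39 ± 0.54, edgeR adjusted p = 0.397), from 123 reads in all. Mir22hg, the host of a microRNA, had 21.7 ± 0.633 and 18.9 ± 0.700 CPM with no overlap between the groups (-0.20 ± 0.10, edgeR adjusted p = 0.509). Dleu2, another microRNA host, had 21.6 ± 2.51 and 30.7 ± 12.3 CPM (0.50 ± 0.27), and Xist, the RNA that coats the silenced X chromosome of female cells, 622 ± 52.5 and 763 ± 201 (0.29 ± 0.22, edgeR adjusted p = 0.654).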
